A study of Rattus norvegicus with 4 samples.

Results

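Solute carriers, ATP-binding cassette (ABC) proteins and ion-pumping ATPases move nutrients, ions, drugs and metabolites across cell membranes. Their transcripts were compared in rat liver after α-naphthylisothiocyanate (ANIT) and after its vehicle. The set took every array feature whose only gene symbol began with Slc, Abc, Atp1, Atp2, Atp6 or Atp7. Left out by name were Slc10a1, Slc22a8, Slc2a2, Slc28a2, Slc29a1, Abcc1, Abcc2, Abcc4 and all Slco genes. This gave 92 features for 49 of the 958 genes on the array. Of these genes 45 were solute carriers, 3 were ABC proteins and 1 was an ATPase, the calcium pump Atp2a1, so that the set says little about pumps as a group.

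Male Sprague-Dawley rats received ANIT in olive oil (75 mg/kg, into the peritoneum) or olive oil alone, and livers were taken after 24 h. ANIT injures bile duct cells and serves to produce cholestasis, a failure of bile flow, in laboratory rodents. RNA of the 3 rats of a condition was mixed, which left 1 pool per condition. Each of 4 two-colour cDNA arrays received both pools. Arrays 1 and 3 carried the ANIT pool in the red dye Cy5, and arrays 2 and 4 in the green dye Cy3. These hybridisations were read as technical repeats of the same pools. The SD given with each mean (n = 4 arrays) therefore covers hybridisation and dye, not the spread between animals, and the treatment has no p-value. Values are log ratios read as log2, ANIT over olive oil. That direction is likely rather than stated: in the labels the ANIT pool is always channel 2 and its vehicle channel 1. The ratios may run the other way, which would turn every sign. Since the samples are whole tissue, fewer cells of a type and less RNA per cell cannot be told apart.

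Solute carriers use gradients of sodium, protons or the substrate itself, whereas ABC proteins and ATPases spend ATP. In hepatocytes such proteins supply amino acids, sugars, vitamins and metals from blood, and others sit in the membranes of mitochondria, lysosomes and peroxisomes. Several families on the array are better known from kidney tubules or nerve endings than from liver.

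No gene of the set differed 2-fold between the pools. Over all 958 genes, 3.55% were lower and 0.626% were higher by the same rule, a mean log2 ratio of at least 1 in size with 1 sign on all 4 arrays. At 1.5-fold, 4 of the 49 genes were lower (8.16%), against 8.35% of all genes, and none was higher, against 2.09% of all genes. The 4 lower genes were Slc46a1, Slc26a1, Slc17a1 and Abcd3. The share of lower genes was thus close to that of the array as a whole. By single features, 5 of 92 were 1.5-fold lower, against 6.92% of all 1936 features, and 2 were 1.5-fold higher, against 2.48%. The median over the set was -0.28, and the median over all genes -0.24.

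The promoters of the 4 lower genes are printed because these are the members that differed most. Each window runs from 250 bases before to 50 bases after the start of the gene, 5′ to 3′ on the gene's strand, from RefSeq on the build GRCr8. Slc46a1 lies at chr10:63859301-63859600 (+ strand), Slc26a1 at chr14:1184721-1185020 (+ strand), Slc17a1 at chr17:41681125-41681424 (- strand) and Abcd3 at chr2:212590330-212590629 (- strand). Capitals mark matches to the 5 motifs searched, on either strand. The first motif was the letters CCAAT, known by these letters as a promoter box. The GC box was searched as GGGCGG and the nuclear receptor hexamer as AGGTCA. The core of hepatocyte nuclear factor 1 sites was searched as GTTAAT and the E-box as CACGTG.
Slc46a1: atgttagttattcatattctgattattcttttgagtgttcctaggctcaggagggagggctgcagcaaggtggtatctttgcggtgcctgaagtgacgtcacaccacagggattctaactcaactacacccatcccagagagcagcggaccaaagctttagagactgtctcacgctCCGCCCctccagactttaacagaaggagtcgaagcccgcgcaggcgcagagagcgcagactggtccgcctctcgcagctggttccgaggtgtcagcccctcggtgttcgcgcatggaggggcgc
Slc26a1: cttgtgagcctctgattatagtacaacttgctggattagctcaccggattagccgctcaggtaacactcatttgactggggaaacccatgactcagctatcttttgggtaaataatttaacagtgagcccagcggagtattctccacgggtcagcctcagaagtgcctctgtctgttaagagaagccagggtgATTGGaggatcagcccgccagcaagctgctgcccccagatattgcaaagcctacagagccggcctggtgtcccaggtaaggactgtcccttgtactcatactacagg
Slc17a1: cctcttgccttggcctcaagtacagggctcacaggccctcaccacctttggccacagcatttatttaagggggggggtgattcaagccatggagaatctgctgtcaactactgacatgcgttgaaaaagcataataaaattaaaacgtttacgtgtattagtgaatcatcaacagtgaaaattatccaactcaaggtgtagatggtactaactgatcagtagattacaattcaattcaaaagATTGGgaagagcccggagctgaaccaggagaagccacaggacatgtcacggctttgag
Abcd3: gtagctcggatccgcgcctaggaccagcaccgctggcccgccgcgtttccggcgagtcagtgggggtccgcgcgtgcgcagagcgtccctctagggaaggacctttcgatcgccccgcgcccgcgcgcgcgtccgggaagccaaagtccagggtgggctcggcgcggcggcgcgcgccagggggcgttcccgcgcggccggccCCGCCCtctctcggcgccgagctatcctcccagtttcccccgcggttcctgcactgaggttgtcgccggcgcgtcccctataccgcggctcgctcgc

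Each of the 4 windows held a single match, and no matches overlapped. Slc26a1 and Slc17a1 held a CCAAT box, and Slc46a1 and Abcd3 a GC box, all on the strand opposite to the gene. The GC content was 56.3% for Slc46a1, 51.3% for Slc26a1, 44.3% for Slc17a1 and 75.0% for Abcd3. None of these windows held the nuclear receptor hexamer, the hepatocyte nuclear factor 1 core or the E-box. Promoter windows were found for 41 of the 49 genes. A GC box was present in 61.0% of these, against 33.1% of 33469 rat promoter windows of the same length, and a CCAAT box in 36.6%, against 37.5%. The shares for the other motifs were 12.2% against 16.2% for the nuclear receptor hexamer, 4.88% against 7.45% for the hepatocyte nuclear factor 1 core and 17.1% against 6.42% for the E-box. The set was counted with 1 window per gene, whereas the 33469 windows were limited neither to 1 per gene nor to genes of the array. The shares over the genes of the array were not analysed, so these differences cannot be read as a trait of carriers. A match in such a window is a description of its letters, not a binding site.

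Slc46a1, the proton-coupled folate transporter, had the lowest mean of the set. Its log2 ratio was -1.07, -0.61, -1.42 and -0.38 on arrays 1 to 4. All 4 arrays were below 0, and both arrays with ANIT in Cy5 were lower than both with ANIT in Cy3. The mean was -0.87 ± 0.46, or 1.83-fold lower in the ANIT pool. Slc26a1 exchanges sulphate, oxalate and bicarbonate. Its values were -0.74, -0.90, -0.93 and -0.59, with a mean of -0.79 ± 0.16 (1.73-fold lower). In the values as deposited the dye orientations overlapped, but with each array centred on its median they stood apart, at -0.17 for ANIT in Cy5 and -1.08 for ANIT in Cy3.

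Slc17a1, a sodium-dependent phosphate carrier that also transports urate and other organic anions, stood at -1.27, -0.42, -0.99 and -0.15. The mean of -0.71 ± 0.51 (1.63-fold lower) joins arrays of very different size, with orientation means of -1.13 for ANIT in Cy5 and -0.28 for ANIT in Cy3. Abcd3, an ABC protein of the peroxisome membrane that imports long-chain and branched acyl-CoAs and bile acid precursors, stood at -0.47, -0.95, -0.62 and -0.76, with a mean of -0.70 ± 0.21 (1.62-fold lower). Its orientations were ordered the other way, with the Cy3 arrays lower. Each of the 4 genes rested on 1 feature. With each array centred on its median, Slc46a1 (-0.70) and Slc26a1 (-0.63) remained past 1.5-fold, while Slc17a1 came to -0.54 and Abcd3 had arrays on both sides of 0. Centring brought the orientation means of Slc46a1 (-0.59 and -0.82) and Slc17a1 (-0.47 and -0.61) closer together, and moved those of Abcd3 (0.11 and -1.18) apart, each given for Cy5 first. If the deposited values are natural logarithms, the same 4 genes reach 2-fold, at -1.25 (Slc46a1), -1.14 (Slc26a1), -1.02 (Slc17a1) and -1.01 (Abcd3) on the log2 scale, and 7.1% of all genes are then 2-fold lower. None of the set is then 2-fold higher, against 1.57% of all genes.

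Another 5 genes had the same sign on all 4 arrays without reaching 1.5-fold. Slc22a18, a member of the organic ion family whose substrates are little known, stood at -0.30, -0.61, -0.35 and -0.39, with a mean of -0.41 ± 0.14. Its 3 features had means of -0.32, -0.46 and -0.46 and each feature was below 0 on every array. Slc12a7, a potassium and chloride cotransporter, had a mean of -0.32 ± 0.17, with the arrays between -0.50 and -0.14. Slc31a1, the high-affinity copper importer, had a mean of -0.32 ± 0.25 over 4 features, with the arrays between -0.57 and -0.03. Not every feature of Slc31a1 kept 1 sign. The feature with a mean of -0.26 changed sign with the dye (-0.69, 0.11, -0.77 and 0.32), and that with a mean of -0.37 was above 0 on array 4 (0.03).

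The only 2 genes above 0 on all arrays were Slc25a14 and Slc38a3. Slc25a14, a mitochondrial inner membrane carrier of the uncoupling protein group, stood at 0.74, 0.19, 0.60 and 0.33, and its mean of 0.47 ± 0.25 (1.38-fold) was the highest of the set. Slc38a3, a sodium-coupled glutamine carrier of hepatocytes, stood at 0.44, 0.06, 0.35 and 0.14 (mean 0.25 ± 0.18, 5 features). Both were higher with ANIT in Cy5 than in Cy3. In all, 7 genes (14.3%) were below 0 on every array, against 20.3% of all genes, and 2 (4.08%) were above 0 on every array, against 9.08%. With centred arrays the genes with 1 sign were largely others. Of the 9 genes, Slc46a1, Slc26a1 and Slc17a1 kept 1 sign on all 4 arrays, and 8 genes of the set were then below 0 on every array (16.3%, against 15.0% of all genes) and 3 above it (6.12%, against 11.4%). Atp2a1, Slc16a7, Slc2a4, Slc29a3 and Slc1a2 joined those below 0, and Slc15a4, Slc4a4 and Slc5a6 were those above it. The means of Slc25a14 (0.63) and Slc38a3 (0.41) had to stay above 0, as centring raised every 4-array mean by 0.17. Their centred orientation means had opposite signs. Slc25a14 was at 1.33 for ANIT in Cy5 and -0.07 for ANIT in Cy3, and Slc38a3 at 1.05 and -0.23.

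**Figure D1:**
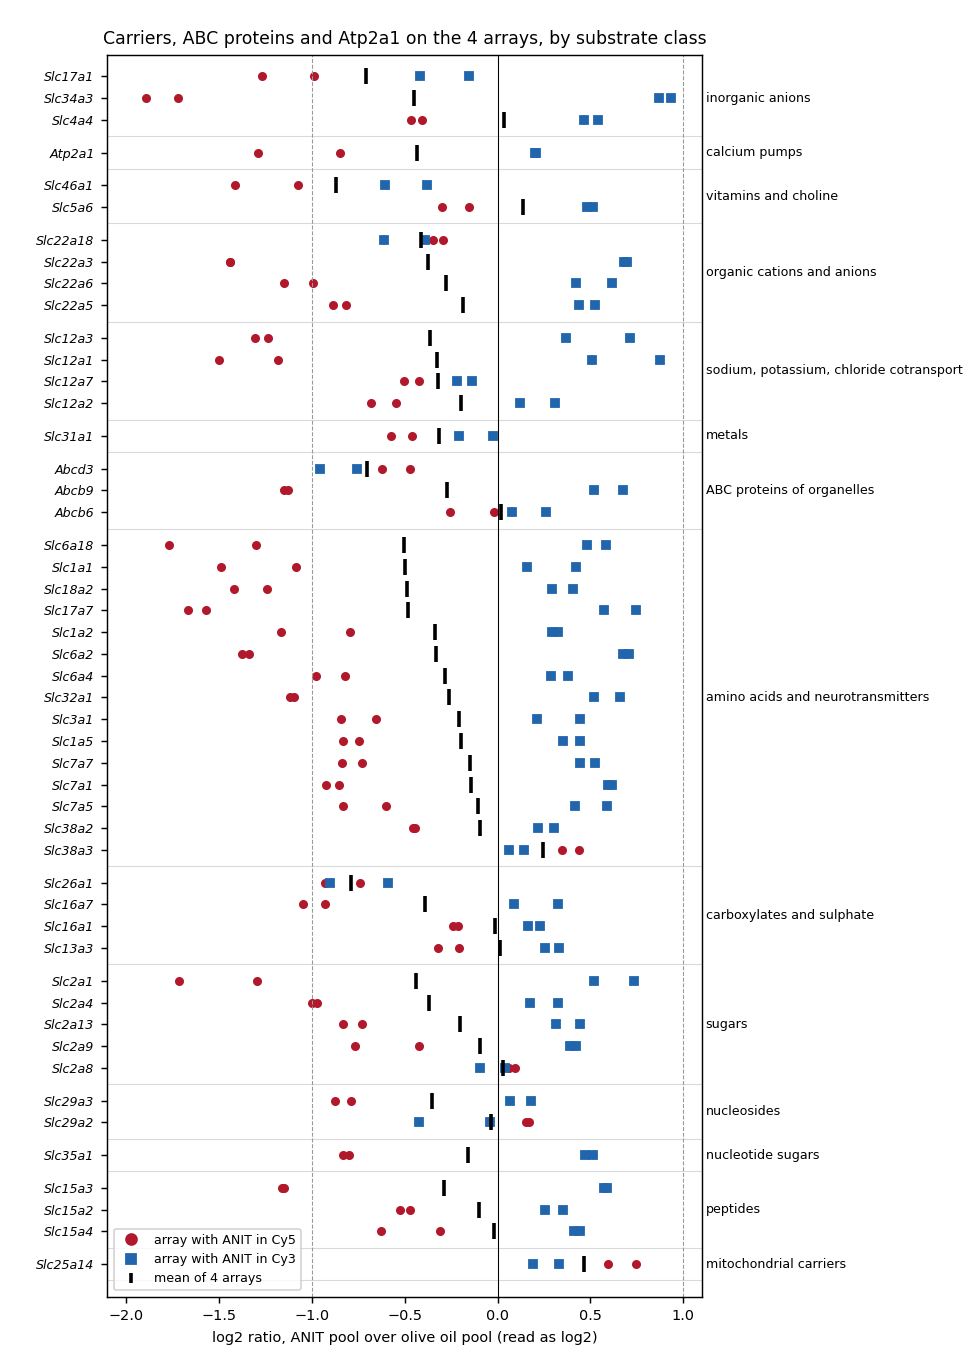
Log2 ratio as deposited (ANIT pool over olive oil pool, horizontal axis) of the 49 genes, grouped by substrate class, on the 2 arrays with ANIT in Cy5 (red circles) and the 2 with ANIT in Cy3 (blue squares), with the mean of the 4 arrays as a black bar and dashed lines at 2-fold. For 38 genes both red points lie below 0 and both blue points above it; Slc46a1, Slc26a1, Slc17a1 and Abcd3 have the lowest means, with all points below 0.

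In the values as deposited, the sign of most ratios in the set followed the dye. The arrays as wholes did so too, with medians over all features of -0.68 and -0.64 for ANIT in Cy5 and of 0.31 and 0.35 for ANIT in Cy3. In 38 of 49 genes (77.6%) arrays 1 and 3 were both below 0 and arrays 2 and 4 both above it, against 55.6% of all genes. With each array centred on its median this pattern was left in 17 of the 49 genes (34.7%), against 23.8% of all genes, and 12 genes (24.5%) showed the opposite one, against 30.6%. As deposited, the remaining 2 genes were Slc2a8, with mixed signs, and Slc29a2, which was above 0 on arrays 1 and 3 and below 0 on arrays 2 and 4. The median distance between the orientation means was 1.19 log2 over the set and 0.78 over all genes as deposited, and 0.57 and 0.63 with centred arrays. Between the arrays of a single orientation, the median distance within a gene was 0.11 for ANIT in Cy5 and 0.12 for ANIT in Cy3. The means of the 38 genes lay between -0.50 and 0.14, with SDs from 0.21 to 1.57, and the part of the dye in these means was not tested.

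Carriers of amino acids and neurotransmitters formed the largest class, with 15 genes, and in 14 of them the sign of the deposited ratios followed the dye. The class median was -0.26. The lowest was Slc6a18, a neutral amino acid carrier known from kidney, at -1.77, 0.58, -1.30 and 0.48 (mean -0.50 ± 1.21). Close to it were Slc1a1, a glutamate carrier (-0.50 ± 0.93), and 2 carriers that fill synaptic vesicles, Slc18a2 for monoamines (-0.49 ± 0.97) and Slc17a7 for glutamate (-0.48 ± 1.32). The SD exceeded the mean in each of them. The plasma membrane carriers of noradrenaline, Slc6a2 (-0.33 ± 1.18), and serotonin, Slc6a4 (-0.28 ± 0.71), showed the same split.

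The Slc7 carriers and Slc38a2 had means nearer 0, as did Slc1a5 (-0.20 ± 0.69) and Slc3a1 (-0.21 ± 0.63). Slc7a1, an arginine and lysine carrier, stood at -0.14 ± 0.86 over 4 features, Slc7a7 at -0.15 ± 0.73 and Slc7a5, a carrier of large neutral amino acids, at -0.11 ± 0.71, both over 3 features. Slc38a2, a glutamine and alanine carrier whose transcript is known to rise when amino acids are short, had a gene mean of -0.09 ± 0.41, but its 5 features ranged from -0.54 to 0.68.

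The highest Slc38a2 feature stood at 0.69, 0.68, 0.67 and 0.68 on arrays 1 to 4 as deposited, a mean of 0.68. Because the array medians themselves differed by dye, these equal values do not show that the feature was free of a dye effect. The 2 lowest features of the gene stood at -0.54 and -0.31 and changed sign with the dye. The other 2 stood at -0.21 and -0.09, and lay between -0.35 and 0.03 on every array. Slc38a3 spread almost as widely, from -0.26 to 0.76. Its highest feature was at 0.92, 0.62, 1.00 and 0.51, and its lowest at -0.20, -0.31, -0.15 and -0.39, so that features of a single gene had opposite signs on all 4 arrays. These were the 2 genes of the set, out of 16 with several features, whose features lay over 1 log2 apart. Among all 340 genes with several features, 4.71% did so. Which transcripts these features detect was not analysed here.

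**Figure D2:**
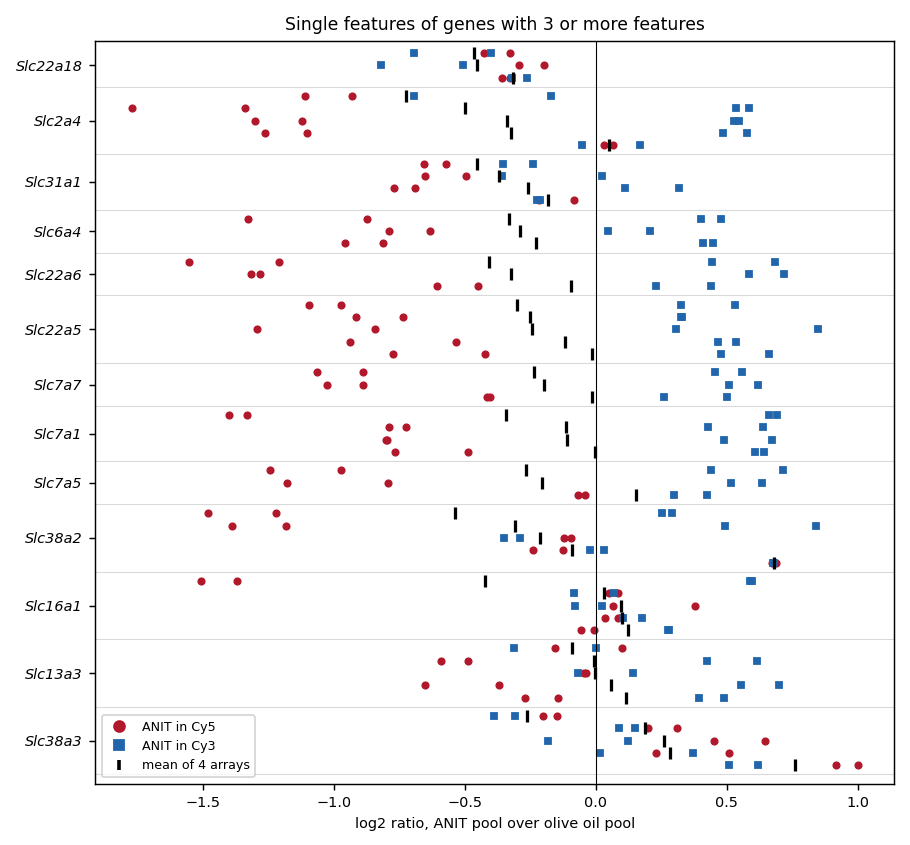
Log2 ratio of every feature (1 row each) of the genes with 3 or more features, on arrays with ANIT in Cy5 (red circles) and in Cy3 (blue squares), with the mean of 4 arrays as a black bar. The features of Slc38a2 run from -0.54 to 0.68 and those of Slc38a3 from -0.26 to 0.76, whereas those of Slc22a18 lie between -0.46 and -0.32.

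The 5 sugar carriers had a median of -0.20. Slc2a1, the glucose carrier of red cells and the blood-brain barrier, was at -1.72, 0.73, -1.29 and 0.52 (mean -0.44 ± 1.25). Slc2a4, the insulin-responsive glucose carrier of muscle and fat, had a mean of -0.37 ± 0.72 over 5 features, which ranged from -0.73 to 0.05. The lowest Slc2a4 feature was below 0 on all arrays and past 1.5-fold, at -0.93, -0.69, -1.11 and -0.17. Slc2a8, a carrier found on membranes inside the cell, had the smallest SD of the set as deposited (mean 0.03 ± 0.08). Its values were 0.10, 0.04, 0.06 and -0.09. With centred arrays its SD was 0.64, and its orientation means were 0.74 for ANIT in Cy5 and -0.35 for ANIT in Cy3. Slc2a13, a proton-coupled myo-inositol carrier, stood at -0.20 ± 0.67, and Slc2a9, a urate carrier, at -0.09 ± 0.59.

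Of the 4 carriers of organic cations and anions, 3 followed the dye as deposited and Slc22a18 did not. With centred arrays Slc22a18 was at 0.34 for ANIT in Cy5 and -0.83 for ANIT in Cy3. Slc22a3, a carrier of organic cations and monoamines, was at -1.44, 0.68, -1.44 and 0.69 (mean -0.38 ± 1.23). Slc22a6, the organic anion exchanger best known from kidney, had a mean of -0.28 ± 0.92 over 3 features. Slc22a5, the carnitine carrier, had a mean of -0.19 ± 0.77 over 5 features from -0.30 to -0.01, and all 5 features changed sign with the dye.

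The 4 cotransporters of sodium, potassium and chloride belonged to the Slc12 family, with a median of -0.32. Slc12a3 (-0.37 ± 1.05) and Slc12a1 (-0.32 ± 1.19), the targets of thiazide and loop diuretics in the kidney, split by dye, as did the widely expressed Slc12a2 (-0.20 ± 0.49). Slc12a7, given above, had almost the same mean as Slc12a1, with an SD of 0.17 as deposited and 0.41 with centred arrays. Among carriers of inorganic anions, Slc34a3, a sodium phosphate cotransporter of kidney, had the widest split of the set, at -1.89, 0.87, -1.72 and 0.93 (mean -0.45 ± 1.57). The sodium bicarbonate cotransporter Slc4a4 was at 0.03 ± 0.54. The calcium pump Atp2a1, of the sarcoplasmic reticulum of fast muscle, was at -1.29, 0.20, -0.85 and 0.21 (mean -0.43 ± 0.76).

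Besides Slc26a1, the class of carboxylate and sulphate carriers held Slc16a7, Slc16a1 and Slc13a3. Slc16a1, which carries lactate, pyruvate and ketone bodies, had a gene mean of -0.01 ± 0.24 over 5 features. Of these features 4 lay between 0.03 and 0.12, and the fifth, which split by dye, at -0.42. Slc13a3, a carrier of succinate and other dicarboxylates, had a mean of 0.01 ± 0.33 over 5 features between -0.09 and 0.12. Slc16a7, a carrier with high affinity for pyruvate, stood at -0.39 ± 0.70.

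The peptide carriers Slc15a3 (-0.29 ± 1.00), Slc15a2 (-0.10 ± 0.47) and Slc15a4 (-0.02 ± 0.53) all followed the dye. So did the 2 other ABC proteins, Abcb9, a peptide transporter of lysosomes (-0.27 ± 1.00), and Abcb6, linked to porphyrin transport (0.02 ± 0.21). The biotin and pantothenate carrier Slc5a6 stood at 0.14 ± 0.42, and Slc35a1, which brings activated sialic acid into the Golgi, at -0.16 ± 0.75. Of the nucleoside carriers, Slc29a3 stood at -0.35 ± 0.55 and Slc29a2 at -0.04 ± 0.28. Slc29a1, which was left out of the set, stood at -1.12 ± 0.16 as deposited.

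Compared by substrate, the class medians differed little beside the split by dye in the deposited values. The medians of the 8 classes with at least 3 genes, which held 41 genes, lay between -0.45 (inorganic anions) and -0.10 (peptides), a spread of 0.35. Within a class, the orientation medians lay 0.71 to 1.63 apart as deposited, and 0.060 to 0.64 apart with centred arrays, where in 6 of the 8 classes this distance was below the spread of 0.35 between the class medians. All 8 deposited medians changed sign with the dye, as the array medians did. With centred arrays 7 did so, 5 of them in the same sense, and the peptide carriers were above 0 in both orientations (0.16 and 0.099). The inorganic anion carriers had the lowest class median with ANIT in Cy5 (-1.13) and the highest with ANIT in Cy3 (0.50), so the order of the classes also changed with the dye. With centred arrays the same class was lowest for ANIT in Cy5 (-0.47) and highest for ANIT in Cy3 (0.17). It held only 3 genes, and these centred medians were those of Slc17a1 (Cy5) and Slc4a4 (Cy3). Each of these 2 genes kept 1 sign on all centred arrays, so the change of sign reflects which gene was in the middle. For ANIT in Cy3 the carriers of organic cations and anions were close behind, at 0.499 against 0.503 as deposited and 0.170 against 0.174 centred.

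**Figure D3:**
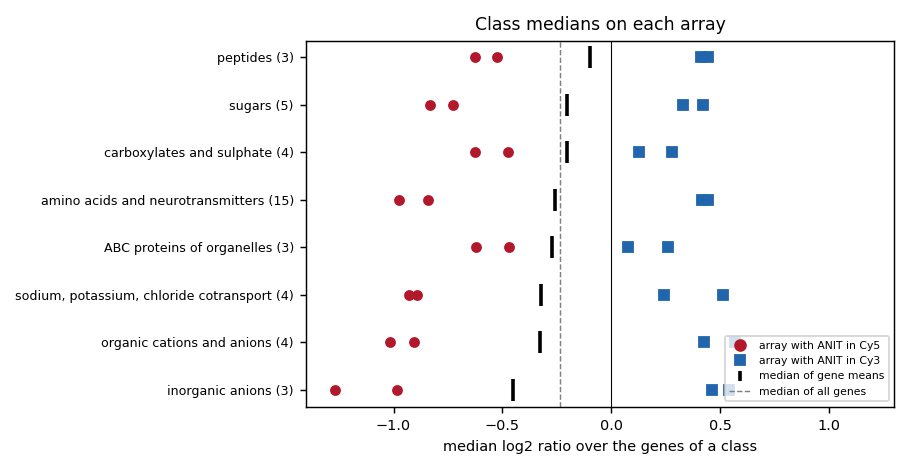
Median log2 ratio as deposited (horizontal axis) of each substrate class with at least 3 genes on the arrays with ANIT in Cy5 (red circles) and in Cy3 (blue squares), with the median of the gene means as a black bar, the median of all genes as a dashed line and the number of genes in brackets. All red points lie below 0 and all blue points above it, while the black bars lie between -0.45 and -0.10.

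The 11 carriers left out of the set had a median of -0.74 as deposited. Of these, 5 were 2-fold lower, against 3.55% of all genes. They included Slc22a8 (-1.81 ± 0.16), an organic anion carrier, and Slc10a1 (-1.44 ± 0.04), which takes up bile acids. Because the array medians differed by dye, these small SDs do not show freedom from a dye effect. Centring raised every 4-array mean by 0.17, so Slc29a1 (-1.12) and Slco1a4 (-1.01) would no longer pass. The mean of Slco1a4 joins features at -1.91 and -0.10. The 11 carriers had been set apart with results of these arrays known, so the contrast with the 49 genes describes that choice as well. Among 6 channels fixed as a list, none was 2-fold lower or higher, and the median was -0.22. The water channel Aqp1 was at -0.13 ± 0.10 and the ATP-gated channel P2rx4 at -0.25 ± 0.19. As deposited, both were below 0 on all arrays, as were 20.3% of all genes. Because the array medians differed by dye, this does not show that they were free of a dye effect. The other ATP-gated channels P2rx1, P2rx5 and P2rx6 and the heat-gated Trpv1 split by dye as deposited. Centred values of the channels were not analysed here. For the mitochondrial ATP synthase, Atp5pb stood at -0.17 ± 0.23, and its inhibitor Atp5if1 at -0.10 ± 0.44.

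**Figure D4:**
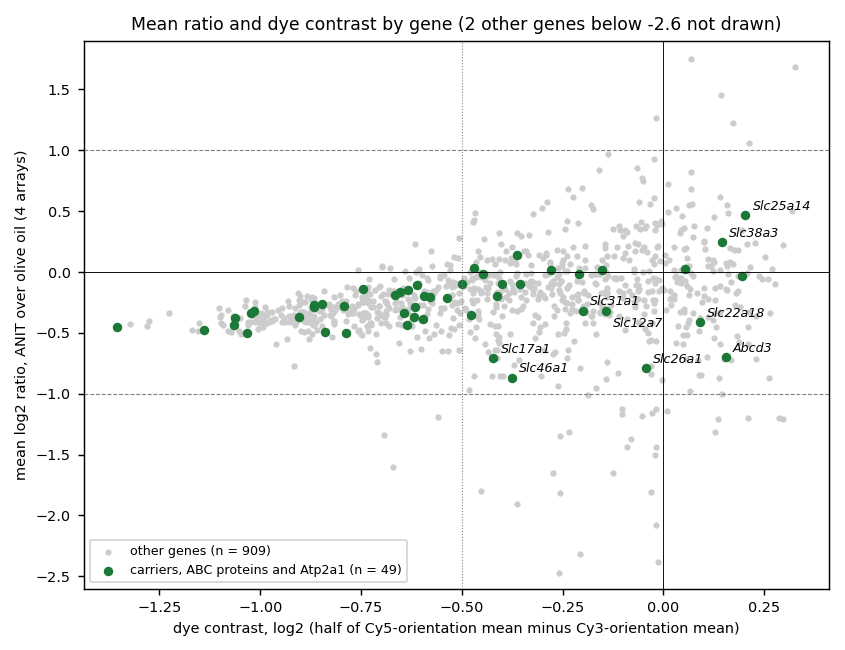
Mean log2 ratio of the 4 arrays as deposited (vertical axis) against the dye contrast (horizontal axis, (mean with ANIT in Cy5 minus mean with ANIT in Cy3) divided by 2), for the 49 genes (green) and 909 other genes (grey, 2 of them below the drawn range), with dashed lines at 2-fold and a dotted line at a dye contrast of -0.5. To the left of the dotted line the green points lie between -0.50 and -0.11; the named genes, which kept 1 sign on all arrays, lie to its right.

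With the dye contrast taken as (mean with ANIT in Cy5 minus mean with ANIT in Cy3) divided by 2, it was -0.5 or below in the deposited values of 27 of the 49 genes (55.1%), against 40.1% of all genes. These 27 genes had a median of -0.32, and all were below 0 in the mean. The other 22 had a median of -0.09 and ranged from -0.87 to 0.47. The median dye contrast over all genes was -0.39, so the limit of -0.5 lay near the offset of whole arrays. It therefore does not single out genes with a dye effect of their own. With centred arrays the contrasts of the set ran from -0.86 (Slc34a3) to 0.70 (Slc25a14). Markers of other cells that liver tissue holds were measured by few genes, and none was 2-fold lower or higher. The 3 genes listed as cholangiocyte markers (Anxa5, Ggt1 and Spp1) had means between -0.37 and -0.14. The 3 endothelial markers lay between -0.44 and -0.22, and the 2 stellate cell and fibroblast markers between -0.44 and 0.13. The neutrophil marker S100a9 had a mean of -0.13. As deposited, all 3 cholangiocyte markers changed sign with the dye, with orientation medians of -1.27 (Cy5) and 0.62 (Cy3). So did S100a9 (-0.90 and 0.64), 2 of the 3 endothelial markers and 1 of the 2 stellate cell and fibroblast markers. The 5 hepatocyte markers had means between -0.28 and 0.07, and 2 of them changed sign with the dye. These marker means therefore do not show that the cell make-up was unchanged. The part of any change in cell make-up in the ratios of the carriers was not tested, and ratios do not show whether a gene was expressed in these livers at all.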

How the data were processed

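Per the labels, liver RNA of 3 rats per condition was pooled and both pools were hybridised together on each of 4 spotted cDNA arrays in a balanced dye swap. The authors deposited 1 log ratio per feature and array, read here as log2. For scanning, normalization, log base and direction, nothing is given in the sources used here. As log10, the value furthest from 0 (4.96 in size) would lie beyond what a 16-bit scanner can give (4.82). Values were used without centring and no array's sign was turned. For the treatment, precision is limited by the 1 pool per condition, and the 4 arrays bear only on the precision of hybridisation. Spot intensities were not used here.

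Of 1936 features, 1432 carried 1 gene symbol in the platform annotation (958 genes). All 92 features of the set matched a gene ID with the same symbol in the RefSeq table of GRCr8. Features of a gene were averaged. A gene was called lower or higher when its mean was at least 2-fold (1 on the log2 scale) with 1 sign on all 4 arrays. A 1.5-fold limit was an alternative, as were centring, single orientations, each array left out, single features and natural logarithms. With 1 pool per condition no test was run.

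The gene set, the substrate classes and the lists were chosen with earlier results of these data known. Genes named were those past 1.5-fold, the ends of each class, genes with discordant features and a list of known liver carriers and pumps, of which Slc16a1 alone was analysed here; further genes were named after their values were seen. The steps were tested on simulated data. Computation used pandas 2.3.3 and numpy 2.4.6 in Python 3.11.15, and figures matplotlib 3.10.9.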

Additional observations from a re-analysis of the deposited data

How the results depend on the processing

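With a limit of 1.5-fold, 4 genes of the set were lower in place of 0. With the values read as natural logarithms, 4 were 2-fold lower. With ANIT in Cy5 alone 17 were, and with ANIT in Cy3 alone none. The share of all genes was not analysed for single orientations. The Cy5 arrays had medians over all features of -0.68 and -0.64, so the 17 genes cannot be read as a trait of carriers. No gene was 2-fold higher under any alternative run. With ANIT in Cy3 alone the medians of all 8 classes with at least 3 genes were above 0. They ran from 0.17 for ABC proteins of organelles to 0.50 for inorganic anion carriers, and 35 of 49 gene means changed sign. Centring moved every 4-array mean up by 0.17, as it raised the ratios of the Cy5 arrays and lowered those of the Cy3 arrays by their medians. It gave a set median of -0.11 and turned the median of the peptide carriers to 0.067. With single features the median of the carboxylate and sulphate carriers was 0.014. With each array left out in turn, the set median lay between -0.31 and -0.23 and no gene reached 2-fold. No paired analysis was possible because the 4 arrays form 1 group. The spread between animals is unknown, and signal over background was not analysed here.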
